A study of Mus musculus with 20 samples.

Results

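The genes described here belong to the oxytocin and contraction system of the uterus and were followed in the uterine RNA of pregnant mice in the evening of day 3.5, shortly ahead of implantation. They are the ligand gene Oxt, the receptor genes Oxtr and Avpr1a, the connexin genes Gja1, Gjb2, Gja4 and Gjc1, the G protein regulator gene Rgs2 and the peptidase gene Lnpep. These 9 genes were chosen by symbol from the 45777 genes of the deposited table, with their levels across the 4 groups already known, so their differences between groups are given as a description without a p-value. Of the 9 genes, 8 were above 0 TPM (transcript abundance scaled to transcript length and to a fixed library total) in all 20 libraries and were among the 18706 genes tested, and Oxt was not.

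The study asked how peripheral blood mononuclear cells (PBMCs) given into the uterus affect a mouse model of implantation failure (IF). All mice were wild-type B6D2F1 females, a hybrid of inbred strains, 8 to 12 weeks old and mated with males, and each of the 4 groups held 5 mice with 1 library each, from the uterine RNA of a single horn. The control group received neither RU486 nor cells, and the IF group received low-dose RU486 (mifepristone, an antagonist of the progesterone and glucocorticoid receptors) under the skin on the morning of day 3.5. The PBMC group received cultured PBMCs of non-pregnant female mice into the uterus on day 1.5 and RU486 on day 3.5. For the PBMC-hCG group the culture also held human chorionic gonadotropin (hCG), and the mice received the same RU486. RU486 was thus shared by 3 of the groups, no group received cells without RU486, and the IF mice were given no intrauterine injection, so the injection and the cells cannot be told apart here. A group of mice given culture medium with hCG was not analysed here. The libraries listed 22702 to 24097 genes above 0 TPM and their log2 values correlated with r of 0.961 to 0.992 within groups, and since TPM add up to a fixed total the depth behind each value is unknown.

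Oxytocin is a short peptide hormone that acts on a Gq-coupled receptor, the product of Oxtr, which raises intracellular calcium through phospholipase C and makes uterine smooth muscle contract. Connexins join into gap junctions that pass ions and small molecules between neighbouring cells, and the connexin of Gja1 (connexin-43) couples smooth muscle cells in the contracting uterus and stromal cells during decidualization. Oxtr, Gja1 and the prostaglandin genes are known as contraction-associated genes because their products promote contraction and coupling of uterine muscle, and in pregnancy estrogen raises and progesterone restrains many of them. Rgs2 shortens signals through Gq, and the aminopeptidase encoded by Lnpep, also called oxytocinase or placental leucine aminopeptidase, degrades oxytocin and vasopressin.

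The 250 bases before the annotated start of 4 of the genes are shown because the levels of Oxtr, Gja1 and Gjb2 varied together between mice, while that of Rgs2 separated the control group from the rest. The sequences are those of RefSeq on the build GRCm38.p6, which held a promoter for 8 of the 9 genes, all but Gjc1. They lie at chr6:112489826-112490075 on the minus strand for Oxtr, chr10:56377050-56377299 on the plus strand for Gja1, chr14:57104703-57104952 on the minus strand for Gjb2 and chr1:144004150-144004399 on the minus strand for Rgs2. Each is written 5′ to 3′ along the strand of its gene. Capitals mark matches to the AP-1 site TGANTCA, the GC box GGGCGG and the TATA box TATAAA, each searched on both strands. They also mark the estrogen receptor half-site GGTCA and the progesterone and glucocorticoid receptor half-site AGAACA, searched in the same way. A half-site is only a part of a full binding site, and full sites of these receptors were not searched for.
Oxtr: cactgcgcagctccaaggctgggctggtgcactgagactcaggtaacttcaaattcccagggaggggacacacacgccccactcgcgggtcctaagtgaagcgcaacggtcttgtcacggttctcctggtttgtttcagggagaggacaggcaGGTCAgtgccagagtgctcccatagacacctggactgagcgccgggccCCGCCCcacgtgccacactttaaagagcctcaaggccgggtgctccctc
Gja1: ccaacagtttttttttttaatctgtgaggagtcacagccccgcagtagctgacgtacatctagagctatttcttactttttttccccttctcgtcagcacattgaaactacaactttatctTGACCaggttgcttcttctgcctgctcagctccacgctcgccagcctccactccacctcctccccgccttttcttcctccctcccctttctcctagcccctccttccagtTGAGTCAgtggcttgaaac
Gjb2: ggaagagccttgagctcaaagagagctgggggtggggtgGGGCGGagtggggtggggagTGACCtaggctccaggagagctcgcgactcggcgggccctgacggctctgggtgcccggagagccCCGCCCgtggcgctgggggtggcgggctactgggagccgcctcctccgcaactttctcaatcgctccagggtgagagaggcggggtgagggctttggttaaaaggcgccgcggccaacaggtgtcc
Rgs2: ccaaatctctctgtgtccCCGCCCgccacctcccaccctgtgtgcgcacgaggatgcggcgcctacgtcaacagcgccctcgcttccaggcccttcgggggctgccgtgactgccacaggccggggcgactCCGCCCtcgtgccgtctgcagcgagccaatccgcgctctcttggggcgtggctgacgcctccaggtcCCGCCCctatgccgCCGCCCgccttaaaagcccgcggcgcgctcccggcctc

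In the Oxtr window GGTCA began 97 bases and the reverse complement of the GC box 49 bases before the start. In the Gja1 window the estrogen receptor half-site on the other strand began 129 bases and the AP-1 match TGAGTCA 19 bases before the start. In the Gjb2 window this half-site on the other strand began 191 bases and GC boxes 211 and 126 bases before the start. The Rgs2 window held 4 GC boxes and no match to the other motifs. No match overlapped another. Among 32851 RefSeq promoters of the same length, 35.2% held the estrogen receptor half-site and 16.1% the progesterone and glucocorticoid receptor half-site. The AP-1 site was held by 6.75%, the GC box by 32.7% and the TATA box by 12.4%. A match is only a stretch of letters, and binding was not measured. For Oxtr the GENCODE M21 gene model starts 118 bases further upstream than that of RefSeq. Both matches of the Oxtr window thus lie inside the GENCODE model and not before its start.

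In GENCODE M21 on the same build, Oxtr lies at chr6:112473683-112489943 on the minus strand with 2 coding exons. Gja1 (chr10:56377330-56402513), Gjb2 (chr14:57098600-57104702) and Gja4 (chr4:127311421-127314039) have 2 exons and Gjc1 (chr11:102799579-102819700) has 3, and in all 4 connexin genes 1 exon holds the coding sequence. Rgs2 (chr1:143999338-144004161) has 5 exons and Lnpep (chr17:17521410-17625050) has 18. Avpr1a (chr10:122448499-122453452) is overlapped by an antisense gene and Lnpep by an experimentally untested transcript on its own strand. The libraries were stranded, but whether strand was used when reads were assigned is not given in the sources used here, so the values of these 2 genes may hold reads of their neighbours.

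The ligand gene Oxt was listed at 0 TPM in 14 of the 20 libraries. Control mice 2 and 3 had 0.0629 and 0.258 TPM, IF mouse 5 had 0.0428 TPM, and the other values above 0 were 0.03, 0.0885 and 0.136 TPM in PBMC mice 1, 3 and 5, and it was listed at 0 in all 5 PBMC-hCG mice. These levels were below those of the other 8 genes in every library, and no comparison between groups was made.

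The receptor gene Oxtr differed most in fold between group means among the 8 tested genes, from 9.83 ± 5.63 TPM (mean ± SD, n = 5) in the control group to 149 ± 75.4 TPM in the IF group. The values of the 5 control mice were 5.8, 19.6, 6.21, 9.06 and 8.5 TPM, and those of the IF mice were 87, 136, 81.9, 175 and 265 TPM. The highest control mouse thus lay far under the lowest IF mouse. In the PBMC group the values were 44.6, 44.4, 69.3, 35.1 and 176 TPM, and in the PBMC-hCG group 89.1, 22.2, 19.9, 29.2 and 31.8 TPM. In each of these groups a single mouse, PBMC mouse 5 and PBMC-hCG mouse 1, reached into the range of the IF group and the other 4 mice lay below it.

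The order of the group means of Oxtr was IF, PBMC (73.8 ± 58.4 TPM), PBMC-hCG (38.4 ± 28.7 TPM) and control. Neighbours in this order overlapped, except that the lowest PBMC-hCG mouse (19.9 TPM) lay just above the highest control mouse (19.6 TPM). On the scale of log2(TPM + 0.1), the IF group exceeded the control group in Oxtr by 3.92 ± 0.47 (SE), a 15.1-fold difference, which placed it at rank 6 of the 18706 genes tested from the largest positive difference down. The difference from the IF group was -1.14 in the PBMC group and -2.05 in the PBMC-hCG group, and that of the PBMC-hCG group from the PBMC group was -0.91, each with an SE of 0.47. It was still higher than in the control group by 2.77 in the PBMC group and 1.87 in the PBMC-hCG group.

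**Figure D1:**
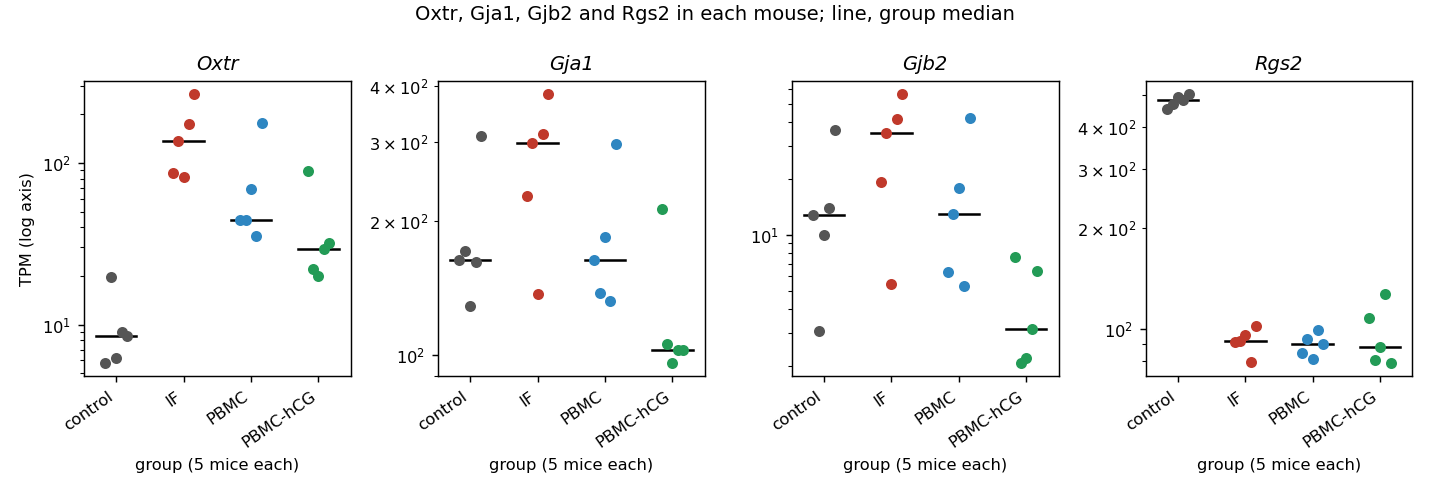
Level of Oxtr, Gja1, Gjb2 and Rgs2 in TPM on a log axis in each of the 5 mice of every group, where each point is a mouse and each line a group median. Oxtr lies between 5.8 and 19.6 TPM in mice of the control group and reaches 81.9 to 265 TPM under RU486 alone, whereas Rgs2 lies between 453 and 501 TPM in the control mice and between 79.1 and 127 TPM in all others.

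Control mouse 2, with the highest Oxtr of its group, was also the library with the highest summed level of 7 adipose tissue markers, 702 TPM, where the other 19 libraries lay between 2.8 and 151 TPM, and IF mouse 5, with the highest Oxtr of all, had the 151 TPM. Without control mouse 2 the difference of Oxtr between the IF and control groups was 4.20, and without IF mouse 5 it was 3.67. Without PBMC mouse 5 the difference of the PBMC from the IF group was -1.53, and without PBMC-hCG mouse 1 that of the PBMC-hCG from the IF group was -2.41. PBMC-hCG mouse 1, the highest of its group in Oxtr, had 17.2 TPM of adipose markers, also the highest of its group. PBMC mouse 5, the highest of its group in Oxtr, had 5.47 TPM, and PBMC mouse 4, the lowest, had 53.8 TPM. Within groups the adipose sum had an r of 0.44 with Oxtr. The part of adipose tissue in these values was not tested.

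Avpr1a, the gene of the vasopressin V1A receptor, which also binds oxytocin, was low in all groups, between 0.883 and 1.86 TPM in the 20 mice. Its group means were 1.31 ± 0.117 TPM in the control, 1.12 ± 0.151 TPM in the IF, 1.41 ± 0.262 TPM in the PBMC and 1.52 ± 0.178 TPM in the PBMC-hCG group. The order of these means ran opposite to that of Oxtr in the 3 groups given RU486, with the lowest mean in the IF group. The difference of the PBMC-hCG from the IF group was 0.41 ± 0.13 (SE) in log2(TPM + 0.1), and the ranges of these groups overlapped. The level of Oxtr exceeded that of Avpr1a in all 20 mice, on the TPM scale, which allows for transcript length.

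Among the connexins, Gja1 was the highest in all 4 groups. Its values were 163, 171, 129, 162 and 310 TPM in the control mice and 227, 299, 137, 313 and 383 TPM in the IF mice. In the PBMC mice they were 163, 138, 184, 132 and 297 TPM, and in the PBMC-hCG mice 212, 106, 96.2, 103 and 103 TPM. Except for PBMC-hCG mouse 1, the PBMC-hCG mice lay below every mouse of the other groups, and PBMC-hCG mouse 1 lay above IF mouse 3, the lowest of the IF group. The group means of Gja1 were in the order IF (272 ± 93.4 TPM), control (187 ± 70.7 TPM), PBMC (183 ± 67.3 TPM) and PBMC-hCG (124 ± 49.2 TPM), and each neighbour overlapped the next. The difference of the IF from the control group was 0.52 ± 0.29 (SE), that of the PBMC from the IF group -0.56, and that of the PBMC-hCG from the IF group -1.12 in log2(TPM + 0.1).

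Gjb2, the gene of connexin-26, a gap junction protein of epithelia, had the largest SE of the 8 genes. The control mice had 12.8, 3.06, 9.96, 13.9 and 36.3 TPM, and the IF mice 19.1, 35.1, 5.49, 41.5 and 56.3 TPM. The PBMC mice had 6.36, 13, 17.7, 5.31 and 42.2 TPM and the PBMC-hCG mice 7.57, 2.07, 2.19, 3.13 and 6.43 TPM. All 5 PBMC-hCG mice lay below 4 of the IF mice, while IF mouse 3 fell inside the range of the PBMC-hCG group. The difference of the IF from the control group was 1.08 ± 0.68 (SE) and that of the PBMC-hCG from the IF group was -2.68, rank 9 from the most negative of the 18706 tested genes, while the PBMC-hCG group differed from the PBMC group by -1.75 and from the control group by -1.60. The difference of the PBMC from the control group was 0.14 and became -0.29 without PBMC mouse 5 and 0.56 without control mouse 5.

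The remaining connexins varied little. Gja4, the gene of connexin-37 of the vessel wall, lay between 27.3 and 54.6 TPM, with group means from 31.6 ± 2.63 TPM in the PBMC-hCG to 39.3 ± 5.18 TPM in the IF group. Gjc1, the gene of connexin-45 of smooth muscle, lay between 38.6 and 47 TPM, with group means from 41.5 ± 2.06 TPM in the IF to 44.7 ± 1.65 TPM in the PBMC-hCG group. For both genes all groups overlapped, and the largest difference in any comparison was -0.30 ± 0.15 (SE) for Gja4 and 0.11 ± 0.05 for Gjc1 in log2(TPM + 0.1), each between the PBMC-hCG and IF groups.

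As a share of the summed TPM of 20 connexin genes, Gja1 held a median of 57.6% in the control, 66.5% in the IF, 57.8% in the PBMC and 49% in the PBMC-hCG group. The median share of Gjb2 was 4.52%, 7.86%, 4.96% and 1.43% in the same order, and that of Gjc1 was 15.8%, 9.11%, 16.5% and 21.1%. The total itself had a median of 282 TPM in the control, 446 TPM in the IF, 282 TPM in the PBMC and 212 TPM in the PBMC-hCG group. Gja1 made up most of this total in the IF mice, from 54.4% to 69%, and its shares overlapped between the groups. Gjd2, Gjd4 and Gje1 were listed at 0 in all libraries.

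**Figure D2:**
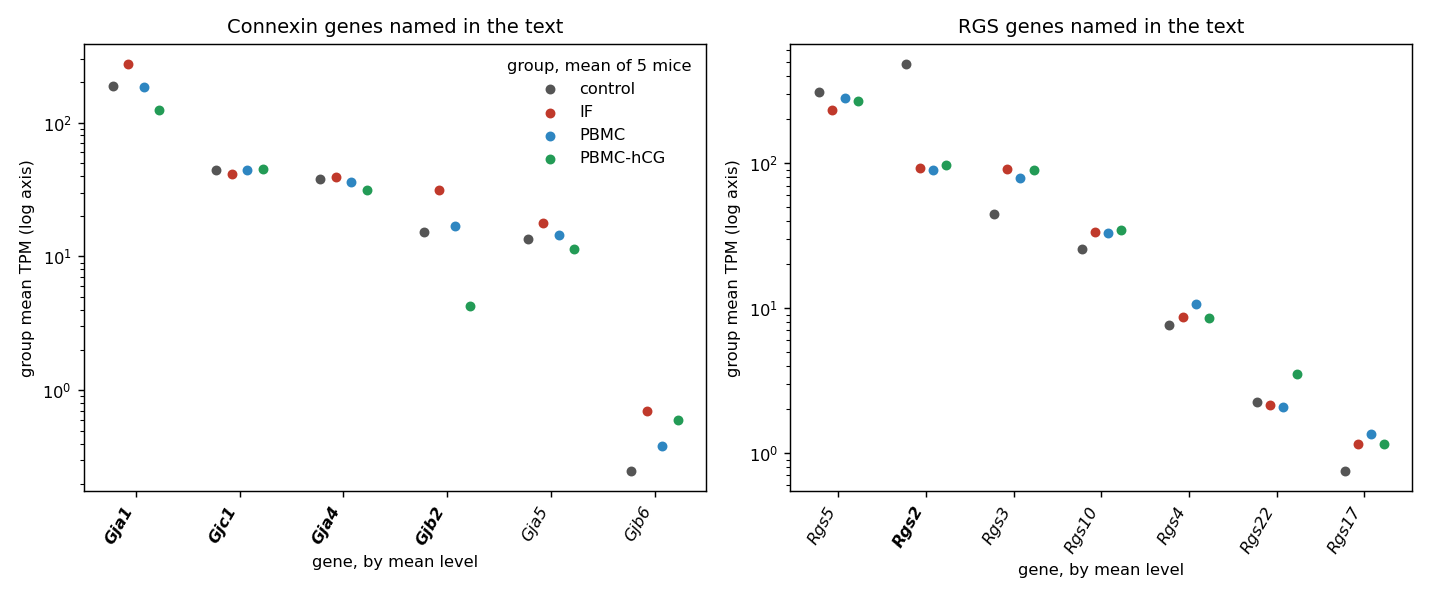
Group mean levels in TPM on a log axis of 6 connexin genes (left) and 7 RGS genes (right) named in the text, all above 0 TPM in all 20 libraries and ordered by their mean, with a point for each group of 5 mice and the chosen connexins and Rgs2 in bold. Gjb2 spans 4.28 to 31.5 TPM between group means while Gjc1 spans 41.5 to 44.7 TPM, and the control mean of Rgs2, 480 TPM, stands above its other means of 89.6 to 96.4 TPM.

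Rgs2 showed the opposite arrangement to Oxtr between the control and IF groups. The control mice had 453, 470, 492, 482 and 501 TPM, and the IF mice 91.4, 91.8, 95.5, 79.5 and 102 TPM. The PBMC mice had 84.8, 93.3, 81.1, 98.9 and 89.8 TPM and the PBMC-hCG mice 108, 80.5, 88, 127 and 79.1 TPM. All 15 mice given RU486 lay far below the control mice, and the 3 groups given RU486 overlapped each other. The difference from the control group was -2.38 ± 0.10 (SE) in the IF, -2.42 in the PBMC and -2.34 in the PBMC-hCG group in log2(TPM + 0.1), and the IF mean was 5.21-fold lower than the control mean. Between the groups given RU486 the differences were -0.04, 0.05 and 0.08, all smaller than their SE of 0.10. Rgs2 was the highest of 20 RGS genes in the control group and ranked 2 in the other groups, below Rgs5.

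Lnpep lay between 12.3 and 20.8 TPM in the 20 mice. Its means were 15.8 ± 2.18 TPM in the control, 18.6 ± 1.1 TPM in the IF, 18.7 ± 1.22 TPM in the PBMC and 19.3 ± 1.7 TPM in the PBMC-hCG group. The differences from the control group were 0.24, 0.25 and 0.29 with an SE of 0.09 in log2(TPM + 0.1), and the 3 groups given RU486 differed from each other by 0.06 or less. The lowest value, 12.3 TPM, was that of control mouse 2, the library with 702 TPM of adipose markers. The IF and control groups did not overlap, but only by the width of rounding, with 17.9 TPM as the highest control and the lowest IF value.

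**Figure D3:**
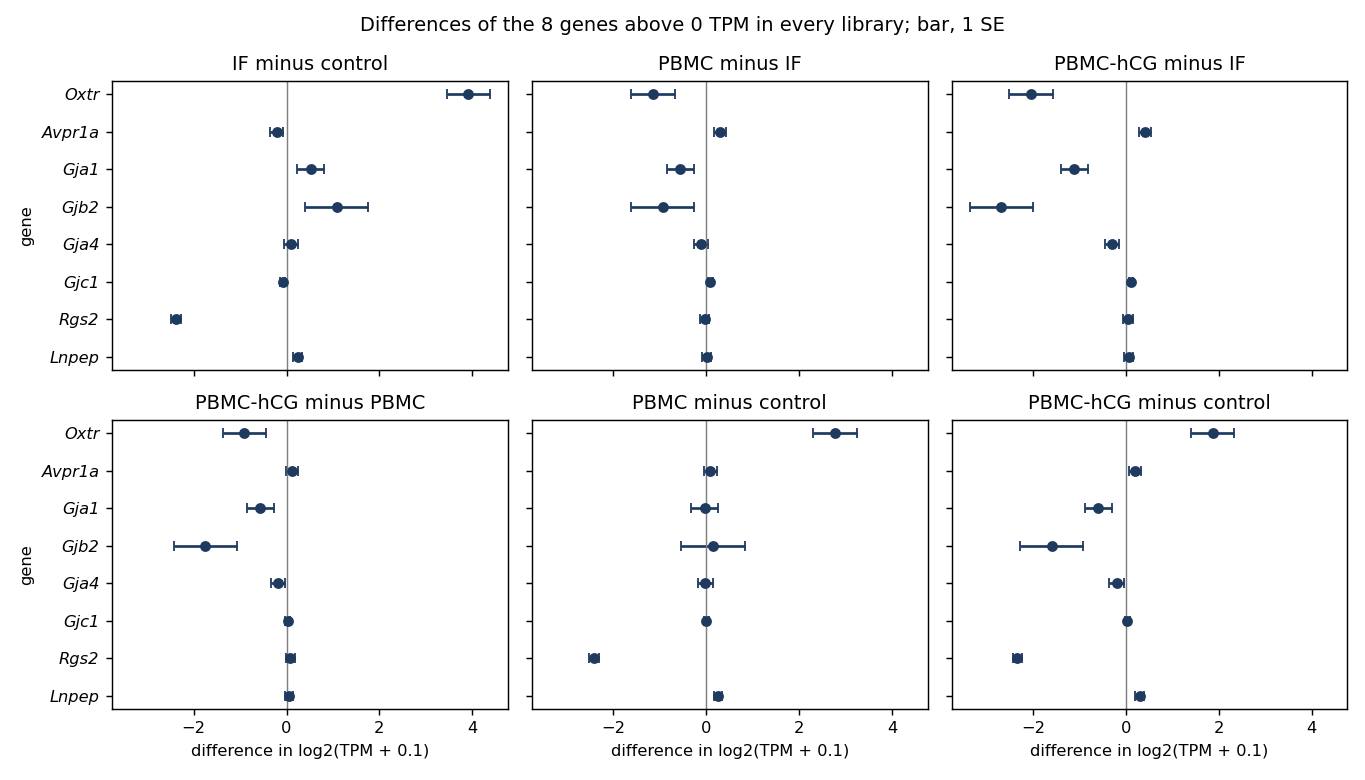
Difference in log2(TPM + 0.1) between groups for the 8 genes above 0 TPM in every library, in the 6 comparisons, with bars of 1 SE from the fit over all 20 mice. Oxtr (3.92) and Rgs2 (-2.38) stand apart in the IF and control comparison, and Gjb2 (-2.68), Oxtr (-2.05) and Gja1 (-1.12) in that of PBMC-hCG with IF.

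A gene was called when its adjusted p in limma's test, by the Benjamini-Hochberg method over the 18706 genes, was under 0.05. Since the 8 tested genes were selected with these comparisons in view, their calls are counted here beside the share of all genes called and nothing is read from them. For IF against control, 1 of the 8 genes was called higher (Oxtr) and 1 lower (Rgs2), where 13.4% of all genes were called higher and 8.53% lower. In this comparison the groups did not overlap for 3 of the 8 genes, where they did not overlap for 12.8% of all genes. For PBMC-hCG against IF, 1 gene was called higher (Avpr1a) and 3 lower (Oxtr, Gja1 and Gjb2), where 7.61% of all genes were called higher and 5.99% lower, and the groups overlapped for all 8 genes, as they did for all but 7.24% of all genes.

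Oxtr was called higher and Rgs2 lower than in the control group also in the PBMC group, where 12.8% of all genes were called higher and 6.7% lower, and in the PBMC-hCG group, where Lnpep was called higher too and 20.2% of all genes were called higher and 11.6% lower. Between the PBMC and IF groups limma called 0 of the 8 genes and 0% of all genes, with 2 of the 8 and 1271 of all genes under an unadjusted p of 0.05. With PBMC-hCG against PBMC it called 0 of the 8 genes and 0.0107% of all genes, with 1 of the 8 and 3024 of all genes under an unadjusted p of 0.05. The calls between the PBMC-hCG and IF groups depended on single mice. When each of the 10 mice was left out in turn, 0 of the 8 genes were called in 7 of the fits, those without IF mouse 2, 4 or 5 or PBMC-hCG mouse 2, 3, 4 or 5, in which at most 34 of all genes were called. Without PBMC-hCG mouse 1 or IF mouse 3, Oxtr, Gja1, Gjb2 and Avpr1a were all called, and without IF mouse 1 the call of Avpr1a was lost. With all mice kept, the call of Avpr1a was also lost with a mean of at least 1 TPM, with no filter, with median centring, with quantile normalization, with a pseudocount of 0.01, with only these groups in the fit, with a replicate block and with a fold of at least 2 at an unadjusted p under 0.05. That of Gja1 was lost with no filter, and those of Oxtr and Gjb2 in none of these settings. As the genes were chosen with these comparisons in view, nothing is read from a call that was kept. The call of Lnpep between the PBMC-hCG and control groups was lost with only these groups in the fit and with the fold threshold. Comparisons that use the IF or the control group share its mice.

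Within groups, after each group mean had been subtracted, Oxtr, Gja1 and Gjb2 went together between mice. Over the 20 mice, r was 0.765 for Oxtr and Gja1, 0.804 for Gja1 and Gjb2 and 0.506 for Oxtr and Gjb2 in log2(TPM + 0.1), with Spearman's rho of 0.792, 0.704 and 0.663. Without the 2 mice farthest from the median of the gene named earlier in each pair, r was 0.606, 0.767 and 0.315. In each group given RU486 the mouse with the highest Oxtr was also the highest in Gja1 and in Gjb2, whereas control mouse 2 was high in Oxtr and lowest in Gjb2 at 3.06 TPM. Avpr1a ran the other way, with an r of -0.563 with Oxtr, -0.515 with Gja1 and -0.675 with Gjb2, and so did Gjc1, with -0.598, -0.524 and -0.487. Rgs2 had an r of 0.142 with Oxtr within groups, against -0.759 when the group means were kept. Mouse 5 was the highest in Gja1 and Gjb2 in each of the control, IF and PBMC groups. Over all tested genes the deviations of these mice also went together, with r of 0.396, 0.272 and 0.457 between their groups. The part of these mice in the r above was not tested. All r between the genes are descriptions of 28 pairs whose values share a library and a fixed total.

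**Figure D4:**
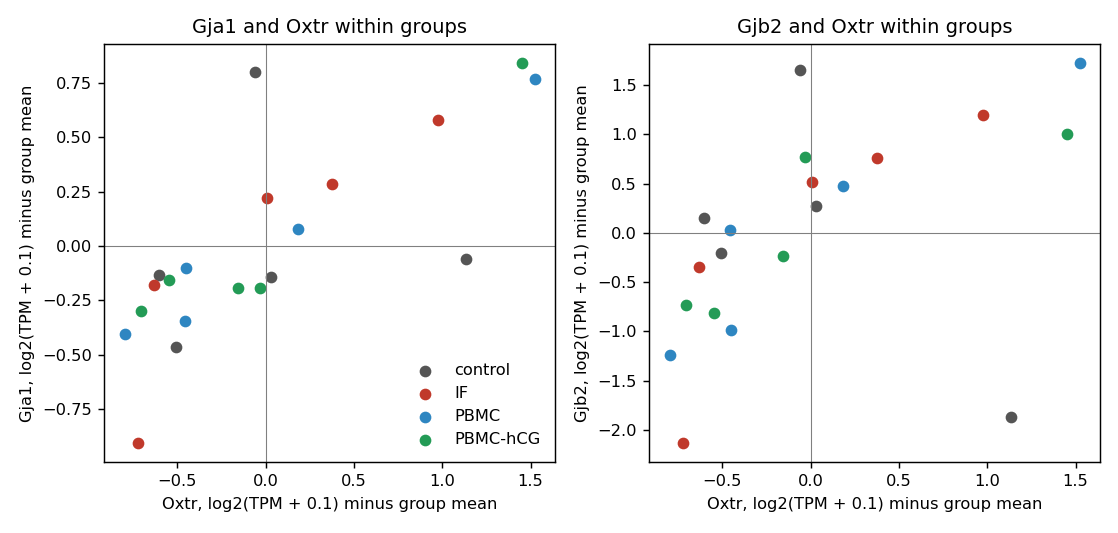
Gja1 (left) and Gjb2 (right) against Oxtr in the 20 mice, each as log2(TPM + 0.1) minus the mean of the mouse's group, with a point for each mouse in the colour of its group. Points rise from lower left to upper right (r = 0.765 and 0.506), with control mouse 2 at the lower right of the Gjb2 panel.

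Across all 20 mice with group means kept, the genes whose levels were most like that of Oxtr, by Pearson's r of log2(TPM + 0.1) among 15763 genes with a mean of at least 1 TPM, were Itgb3 (0.978), Ramp3 (0.975), Arl4c (0.975), Inhbb (0.975), Lrtm2 (0.973), Ddhd1 (0.971), Il17ra (0.971) and Arhgap42 (0.971). With group means subtracted their r with Oxtr lay between 0.855 and 0.927. The mean level of Inhbb was 16.5 TPM in the control, 564 TPM in the IF, 246 TPM in the PBMC and 167 TPM in the PBMC-hCG group, and that of Ramp3 was 35.7, 304, 156 and 130 TPM, both in the order of Oxtr. Most like Rgs2 were Tcf23 (0.971), Il13ra2 (0.966) and Ctla2a (0.964), whose r with group means subtracted was -0.042, 0.125 and 0.347. Most like Gja1 were Trabd2b (0.96), Umps (0.939) and Aacs (0.936), and most like Gjb2 were Eif4a1 (0.947), U2af1 (0.941) and Prep (0.939).

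For the other genes r was lower or the levels narrower. Avpr1a was most like Rgs7bp (0.892), Iqcc (0.888) and Akr1b10 (0.884), Lnpep most like Tnks (0.937), Atxn1l (0.925) and Yes1 (0.918), Gja4 most like Sele (0.793) and Gpr4 (0.777), and Gjc1 most like Gemin8 (0.806), Bbs10 (0.805) and Elmod3 (0.805). All these genes were picked for their likeness over the same mice.

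The other genes of the pathway were counted in 7 lists of 155 genes that hold none of the 9, of which 136 were tested. With IF against control, 45 of the 136 (33.1%) rose and 7 (5.15%) fell, where 13.4% of all genes were called higher and 8.53% lower, with a median difference of 0.18 in log2(TPM + 0.1) against 0.02 for all tested genes. With PBMC-hCG against IF, 18 (13.2%) rose and 7 (5.15%) fell, where 7.61% of all genes were called higher and 5.99% lower, with a median of 0.05 for the lists and 0.05 for all genes. In the PBMC group 48 (35.3%) rose and 4 (2.94%) fell against the control group, where 12.8% of all genes were called higher and 6.7% lower. In the PBMC-hCG group 56 (41.2%) rose and 10 (7.35%) fell against the control group, where the shares of all genes were 20.2% and 11.6%. Between the PBMC and IF groups limma called 0 of the 136, with 19 under an unadjusted p of 0.05, and for PBMC-hCG against PBMC it called 0, with 26 under an unadjusted p of 0.05. The lists were written with earlier results of these data known, so their counts are not independent evidence of a direction. Between the IF and control groups the share called higher was 10% of the other connexins and pannexins and 15.8% of the other RGS genes, both near the 13.4% of all genes, while it was 45.2% for signal transduction, 37.5% for the contraction-associated genes, 31.2% for peptide processing and 25% for gap junction partners. Between the PBMC-hCG and IF groups the share called higher in signal transduction, 7.14%, was near the 7.61% of all genes, and it was 31.2% for gap junction partners, 18.8% for peptide processing, 15.6% for the contraction-associated genes and 0% for the connexins and pannexins.

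The genes that carry the signal of the oxytocin receptor inside the cell rose in the IF group in 19 of 42 cases and fell in 2. Trpc4 (log2 difference 0.63) and Trpc6 (0.42), genes of calcium-permeable channels opened downstream of phospholipase C, rose, as did Rock1 (0.44) and Rock2 (0.53), the kinases that keep myosin phosphorylated, the IP3 receptor genes Itpr1 (0.35), Itpr2 (0.35) and Itpr3 (0.37), and Grk5 (0.61), a kinase that turns off activated receptors. The genes that fell were Camkk1 (-0.64) and Mylk (-0.39), the gene of the myosin light chain kinase. Trpc6, Rock1, Itpr1, Itpr3 and Mylk were named after their values had been seen. Of the genes in this list, Itpr2 (0.46), Arrb1 (0.36), an arrestin that binds phosphorylated receptors, and Stim1 (0.34), the calcium sensor of the endoplasmic reticulum, rose in the PBMC-hCG group against the IF group and Rock2 fell by 0.47, with adjusted p-values of 0.0287, 0.0344, 0.0343 and 0.0396 in limma's test.

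Against the control group 20 genes of this list rose and 0 fell in the PBMC group, with Trpc6 (0.80), Grk5 (0.60) and Itpr2 (0.59) among the widest differences, and 19 rose and 3 fell in the PBMC-hCG group, with Itpr2 (0.81), Trpc4 (0.73), Arrb1 (0.70) and Camkk1 (-0.68) showing the widest.

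Of the other contraction-associated genes and their regulators, 12 of 32 rose and 3 fell between the IF and control groups. Ptger3, the gene of the EP3 receptor of prostaglandin E2, fell from 47.9 ± 6.74 TPM in the control to 10.3 ± 2.19 TPM in the IF group (log2 difference -2.23, adjusted p = 2.84e-09 in limma's test), and the endothelin receptor gene Ednrb fell by 1.33. The other gene that fell was Hoxa11 (-1.09), a patterning gene of the uterine stroma, named after its value had been seen. Pgr, the gene of the progesterone receptor, rose from 45.9 ± 6.49 to 150 ± 16.2 TPM (1.71), and Fos, a subunit of AP-1, rose from 39.3 ± 28.4 to 107 ± 39 TPM (1.71). In the PBMC and PBMC-hCG groups Ptger3, Ednrb, Pgr and Fos were called in these directions against the control group, Ptger3 with -1.90 and -1.86, Ednrb with -1.24 and -1.23, Pgr with 1.34 and 1.29 and Fos with 1.98 and 1.51. Rgs2 and Ptger3 were thus both low in all 3 groups given RU486.

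In the PBMC-hCG group 5 genes of this list rose and 3 fell against the IF group. Ptgs2, the gene of the inducible cyclooxygenase, fell from 3.22 ± 1.79 TPM in the IF to 0.822 ± 0.619 TPM in the PBMC-hCG group (-1.87, adjusted p = 0.0385 in limma's test), and Fosl2, another AP-1 subunit, fell from 147 ± 22.1 to 79.8 ± 19.1 TPM (-0.90, adjusted p = 0.0258 in limma's test). Ptgfr, the gene of the prostaglandin F receptor, rose from 4.07 ± 0.748 to 9.8 ± 3.22 TPM (1.19, adjusted p = 0.0307) and Adra1a, an alpha-adrenergic receptor gene, from 1.54 ± 0.485 to 2.52 ± 0.399 TPM (0.72, adjusted p = 0.0469), all in limma's test. Nr3c1 (0.39) and Scnn1a (0.54) also rose and Rela (-0.22) fell, and these were named after their values had been seen.

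Of 10 other connexins and pannexins tested, Gjb6 rose in the IF group against the control group (1.16, adjusted p = 0.0309 in limma's test) at a mean of only 0.483 TPM over all mice. Gja5, the gene of connexin-40 of the endothelium, fell from 17.7 ± 2.03 TPM in the IF to 11.4 ± 2.5 TPM in the PBMC-hCG group (-0.65, adjusted p = 0.0344 in limma's test). No gene of this list was called between the PBMC and control groups, with 1 under an unadjusted p of 0.05, and Panx2 and Gjb6 rose in the PBMC-hCG group against the control group by 1.44 and 1.01. Gjb6 and Panx2 were named after their values had been seen. The remaining 9 of the 19 genes were not above 0 in all libraries.

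Of 16 genes for proteins that bind, anchor or turn over gap junctions, 4 rose between the IF and control groups. They included Ezr (0.49), Src (0.22), a kinase that phosphorylates connexin-43, and Ctnnb1 (0.16). In the PBMC-hCG group, compared with the IF group, Tjp3 rose from 7.28 ± 1.4 to 15.1 ± 2.07 TPM (1.05, adjusted p = 0.02 in limma's test), and Akap12 (0.69), Cnst (0.39), which sorts connexins to the cell surface, Tjp1 (0.31), the scaffold that binds the tail of connexin-43, and Cav2 (0.22) rose as well. Tubb4b, a tubulin gene, fell by 0.76. Tjp1 and Cav2 were named after their values had been seen. Against the control group 4 of the 16 rose in the PBMC group, and 11 rose and 1 fell in the PBMC-hCG group, where Ccn3, a matrix protein that associates with connexin-43, rose from 16.1 ± 8.87 to 34.2 ± 9.49 TPM.

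Among 19 other RGS genes, 3 rose and 1 fell in the IF group against the control group. Rgs3 rose from 44.6 ± 5.17 to 91 ± 16.3 TPM (1.02, adjusted p = 8.82e-07 in limma's test), so that its IF mean lay next to the 92 ± 8.13 TPM of Rgs2. Rgs17 (0.57) and Rgs10 (0.36) rose, and Rgs5, a gene of pericytes and vascular smooth muscle, fell by 0.38 from 308 ± 66.7 to 231 ± 22.6 TPM. In the PBMC group Rgs3, Rgs17, Rgs4 and Rgs10 rose against the control group by 0.82, 0.78, 0.49 and 0.36, and in the PBMC-hCG group 5 of the 19 rose and 2 fell. Rgs22 (0.75) and Rgs7bp (0.69) rose in the PBMC-hCG group against the IF group.

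Among 16 genes of peptide hormone processing and the aminopeptidases, 5 rose and 1 fell in the IF group. Enpep, the gene of aminopeptidase A, rose from 11.2 ± 0.795 to 23 ± 4.84 TPM (1.01, adjusted p = 6.33e-06 in limma's test), Lvrn, the gene of aminopeptidase Q, rose by 0.91 and Ace, the angiotensin-converting enzyme, by 0.39, and Trhde, which cleaves thyrotropin-releasing hormone, fell by 0.91. Enpep rose against the control group also in the PBMC (1.02) and PBMC-hCG (0.79) groups. Against the IF group, in the PBMC-hCG group Trhde (0.71), Cpe (0.21) and Pam (0.19), which matures peptide hormones, rose and Prep, a peptidase that cuts after proline, fell by 0.69. Of the other vasopressin genes only Avpi1, a gene induced by vasopressin, was tested, and it rose by 0.43 in the IF and 0.50 in the PBMC group against the control group. Avp was listed at 0 in all 20 libraries.

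**Figure D5:**
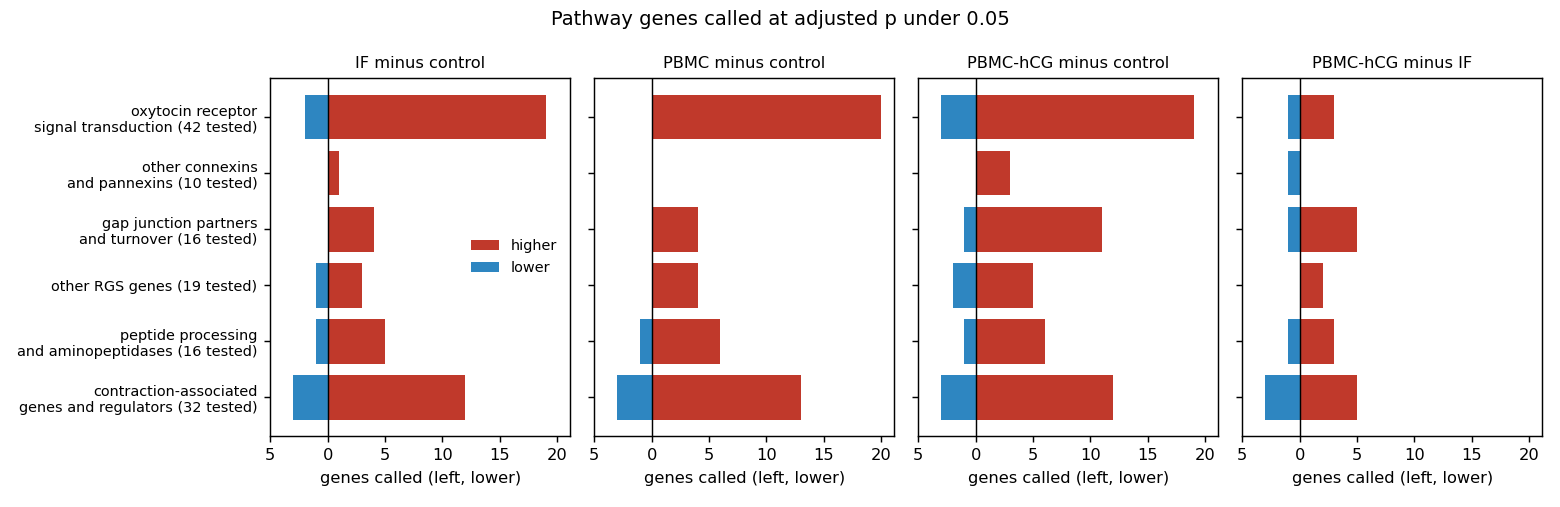
Number of genes of 6 pathway lists called higher (bars to the right) or lower (bars to the left) at an adjusted p under 0.05 in limma's test, in 4 comparisons. In the list of oxytocin receptor signal transduction 19 of 42 genes were higher and 2 lower in IF minus control, and 3 were higher and 1 lower in PBMC-hCG minus IF.

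The counts between the PBMC-hCG and IF groups rested on single mice as did those above. The 25 called genes became 0 without IF mouse 2 or 5 or PBMC-hCG mouse 2, 3 or 4, 1 without IF mouse 4 or PBMC-hCG mouse 5, and 42 without IF mouse 3. With other settings or without 1 mouse, 19 alternatives in all, the calls of Cpe, Pam, Ptgs2, Adra1a and Cnst in this comparison were lost in 12, 11, 10, 10 and 10. Between the IF and control groups the calls of Ctnnb1, Rgs5 and Fos were lost in 13, 11 and 7 of the 19, and the call of Fos between the PBMC-hCG and control groups was lost in 10.

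In whole uterine tissue, fewer cells of a type and less RNA per cell cannot be told apart, and the markers of the cell types were therefore counted beside the results. The summed level of 10 smooth muscle markers lay between 6350 and 11700 TPM in the control and 6430 and 7880 TPM in the IF mice. It lay between 6220 and 7640 TPM in the PBMC and 5190 and 6540 TPM in the PBMC-hCG mice. Of these 10, 0 were called higher and 2 lower in the IF group against the control group, Acta2 (-0.42) and Casq2 (-1.31), with 4 under an unadjusted p of 0.05, and 6 were called lower in the PBMC-hCG group against the control group, while between the PBMC-hCG and IF groups 0 were called with 3 under an unadjusted p of 0.05. Of 10 epithelial markers 6 rose and 2 fell in the IF group, and their sum lay between 830 and 1500 TPM in the control, 1170 and 1480 TPM in the IF, 1180 and 1520 TPM in the PBMC and 1220 and 1600 TPM in the PBMC-hCG mice. In the IF group 3 of 10 stromal markers rose and 1 fell, and 9 of 10 endothelial markers rose and 0 fell. Of 8 pericyte markers 4 rose and 1 fell. Of all genes tested, 13.4% were called higher and 8.53% lower in the IF group against the control group. For PBMC-hCG against control these shares were 20.2% and 11.6%. The endothelial sum of 636 to 812 TPM in the control mice did not overlap those of 911 to 1020 TPM in the IF, 906 to 1080 TPM in the PBMC and 1020 to 1150 TPM in the PBMC-hCG mice. The stromal sum lay between 5420 and 9500 TPM in the control and between 9250 and 11600 TPM in the other mice, and the pericyte sum between 464 and 695 TPM in the control and between 603 and 761 TPM in the other mice.

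Between the PBMC-hCG and IF groups 1 epithelial, 2 stromal and 1 endothelial marker rose and 0 of these 3 lists fell. Of all genes 7.61% were called higher and 5.99% lower in this comparison. Within groups, the summed endothelial markers had an r of -0.575 with Oxtr and -0.68 with Gja1 over the 20 mice, and the summed smooth muscle markers an r of 0.077 with Oxtr, 0.463 with Gja1 and 0.602 with Gjb2. The summed epithelial markers had an r of -0.609 with Gjb2, against 0.103 with Oxtr and -0.416 with Gja1, and the leukocyte sum one of -0.516 with Gjb2. Oxtr had an r of -0.619 with the pericyte and -0.542 with the stromal sum. Lnpep had an r of 0.691 with the stromal and 0.637 with the pericyte sum, and Gja4 one of 0.663 with the pericyte and 0.571 with the endothelial sum. Of 9 leukocyte markers tested 3 rose in the IF group, and 0 were called between the PBMC-hCG and IF groups with 1 under an unadjusted p of 0.05. Of 5 red cell markers 2 fell between the PBMC-hCG and IF groups, where their sum lay between 342 and 878 TPM and between 640 and 1800 TPM, against 646 to 1300 TPM in the control and 480 to 1680 TPM in the PBMC mice. The leukocyte sum lay between 640 and 901 TPM in the control and IF mice and between 701 and 999 TPM in the PBMC and PBMC-hCG mice. The part of these cell types in the results was not tested.

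The summed ovary and oviduct markers had an r of 0.799 with Oxtr within groups. In the IF group 1 of the 7 tested rose (Foxl2, 1.66) and 1 fell (Ovgp1, -0.93), where 13.4% of all genes were called higher and 8.53% lower. Between the PBMC-hCG and IF groups Foxl2 fell by 0.56, in the direction of Oxtr, and Gdf9 rose by 0.83 at a mean of 1.57 TPM over all mice. Against the control group Foxl2 rose by 1.16 in the PBMC and 1.10 in the PBMC-hCG group and Ovgp1 fell (-1.69 and -1.64), and Gdf9 rose by 0.79 in the PBMC-hCG group. Their sum lay between 52.6 and 66.4 TPM in the control, 73.8 and 114 TPM in the IF, 61.6 and 90 TPM in the PBMC and 63.4 and 81.1 TPM in the PBMC-hCG mice. Foxl2 had the highest mean of that list, 45.6 TPM, followed by Ovgp1 with 11.9 TPM and Inha with 9.05 TPM. Foxl2 thus made up the largest part of the sum. The part of Foxl2, and that of ovary or oviduct tissue, in the r with Oxtr was not tested. Cyp19a1 and Zp3, markers of granulosa cells and oocytes, were listed at 0 in all 20 libraries. Star, Gdf9, Cyp11a1 and Amh of the same list were above 0 in all of them, with means of 4.84, 1.57, 0.712 and 0.336 TPM. Of 7 adipose markers only Fabp4 and of 7 embryo markers only Gata6 were above 0 in all libraries, and neither was called in any comparison, with 0 and 1 of the 6 comparisons under an unadjusted p of 0.05.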

How the data were processed

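The authors deposited a gene-by-mouse table of TPM. Per the labels and the study's methods, stranded mRNA libraries were trimmed with Trimmomatic, aligned to mm10 with HISAT2 and assembled with StringTie, and versions are not given in the sources used here. Column totals lay between 999989 and 999999, so depth is unknown and no counting error was given. Group and mouse number came from the labels, and no columns were identical.

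The authors compared read counts with an exact test, which TPM do not allow. Instead, log2(TPM + 0.1) of the 18706 genes above 0 TPM in all 20 libraries was modelled by group over all 20 mice in limma (version 3.58.1, R version 4.3.3), using a trended variance prior, and the false discovery rate was controlled per comparison (6 in all) after Benjamini and Hochberg. The data.table package (version 1.17.8) read the files, and Python (version 3.11.15) with matplotlib (version 3.10.9) made the plots. The fit was tested on simulated data.

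The 9 genes and all lists were chosen with earlier results of these data known. Named were the 9 genes, up to 4 called pathway genes per list and comparison with the largest difference and a mean of at least 1 TPM, the 8 genes most like Oxtr and the 3 most like each other gene tested, and the cell type markers. Some genes that met this rule are not reported here. Genes outside it are said to be named after their values were seen. Replicate numbers were not treated as pairs: 8 of 30 same-numbered pairs had deviations correlated above 0.1 (median r -0.0095). The highest r were those between mice 5 of the control and IF (0.396), control and PBMC (0.272) and IF and PBMC (0.457) groups. The reason was not tested. Gene models are those of GENCODE M21 and promoters those of RefSeq, both on GRCm38. Alternatives were other pseudocounts, filters, scalings, fits and thresholds, and each mouse left out in turn.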

Additional observations from a re-analysis of the deposited data

Results flagged for a closer look

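In 7 of 32 combinations of a gene and a group, the highest or lowest of the 5 mice lay further from the rest than Dixon's critical value of 0.71 allows, where chance gives about 1 in 20 for independent values of a normal spread. For Oxtr these were control mouse 2 at 19.6 TPM against 5.8 to 9.06 TPM in the other 4 mice, PBMC mouse 5 at 176 TPM against 35.1 to 69.3 TPM, and PBMC-hCG mouse 1 at 89.1 TPM against 19.9 to 31.8 TPM. For Gja1 they were control mouse 5 at 310 TPM against 129 to 171 TPM and PBMC-hCG mouse 1 at 212 TPM against 96.2 to 106 TPM. PBMC-hCG mouse 1 thus stood apart in both genes. For Lnpep they were IF mouse 3 at 20.5 TPM against 17.9 to 18.3 TPM and PBMC mouse 1 at 20.8 TPM against 17.8 to 18.3 TPM. The ratio was taken on TPM and not on the log2 scale of the fits, and a high mouse stands out more on TPM. The combinations also share mice, so their number cannot be set against the rate of chance. The causes were not tested.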

How the results depend on the processing

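The 52 pathway genes called for IF against control became 10 with the study's threshold, a fold of at least 2 and an unadjusted p under 0.05, and 32 with only these groups in the fit. The 25 for PBMC-hCG against IF became 3 with the study's threshold and 9 without the filter, the 0 for PBMC-hCG against PBMC became 1, and the 52 and 66 for PBMC and PBMC-hCG against control became 6 and 9, with the study's threshold. The other 53 counts stayed within 1.5 times, among them 53, 27, 48 and 64 with a replicate block for IF against control, PBMC-hCG against IF, and PBMC and PBMC-hCG against control. The cause of these shifts was not tested. Leaving out 1 mouse gave 42 to 56, 0 to 42, 43 to 59 and 53 to 80 called genes in the same order, and 0 to 0 for PBMC against IF and for PBMC-hCG against PBMC. The 0 to 42 of PBMC-hCG against IF includes 0 without IF mouse 2 or 5 or PBMC-hCG mouse 2, 3 or 4, 1 without IF mouse 4 or PBMC-hCG mouse 5, and 42 without IF mouse 3.

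The difference of Oxtr lay between 3.67 and 4.20 for IF against control, -1.53 and -0.90 for PBMC against IF, -2.41 and -1.81 for PBMC-hCG against IF, -1.27 and -0.52 for PBMC-hCG against PBMC, 2.39 and 3.05 for PBMC against control and 1.50 and 2.15 for PBMC-hCG against control when each mouse was left out. Of the 8 genes, 432 differences under other settings and 480 with a mouse left out all stayed within 1 SD between mice of the value given above. With 5 mice a group, leaving out 1 mouse cannot move a difference by more than this SD. The other filters, the fit without a variance trend, the replicate block and the fits of only the groups compared leave a difference itself unchanged. Nothing is therefore read from these counts. Depth is unknown, and TPM cannot show a change in total RNA. With 5 mice a group, the interval of a difference of Oxtr is wide, and a comparison that called 0 genes does not show that the groups are alike.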
